A study of Drosophila melanogaster with 10 samples.

Results

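The genes described here are the chemosensory receptor and odorant-binding protein genes of Drosophila melanogaster, chosen by name alone: the gene symbol starts with Gr, Or, Ir or Obp and continues with a cytological number and a letter. The rule held for 237 genes of the RefSeq annotation, of which 212 were represented by at least 1 probe set naming no other gene. These 212 genes, out of 11981 genes represented in the same way, were 56 gustatory receptor (Gr), 56 odorant receptor (Or), 53 ionotropic receptor (Ir) and 47 odorant-binding protein (Obp) genes. Of the remaining 25 genes, 10 lay on 9 probe sets that name several genes, none of which rose above 2.45 on any array, and 15 were on no probe set named here.

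Gr and Or proteins are the membrane receptors with which flies taste and smell, and Or proteins work together with the common co-receptor Orco. Ir proteins are relatives of the ionotropic glutamate receptors that sense acids, amines, humidity and temperature, usually together with the co-receptors Ir8a, Ir25a or Ir76b. Obp proteins are small secreted proteins that bind odorants and other small hydrophobic molecules in the fluid around sensory neurons and are also made outside sensory organs.

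The cells were SL2 cells, an established line of male origin that was derived from embryos. Total RNA was collected 7 days after the cells were given 10 µg of double-stranded RNA (dsRNA), and each sample was hybridised to 1 Affymetrix expression array. The 10 arrays comprised 3 biological replicates with dsRNA against GST, a control sequence, 3 with construct M1 and 3 with construct M2, both directed against the transcript of MBD-R2, which belongs to the NSL complex of chromatin regulators, and 1 array of cells without dsRNA. For M2 replicate 3 the labels disagree, since its title says M3 and its other labels say M2, the group used here. Because the level of the target transcript was not analysed here, knockdown below names the treatment and not a measured depletion.

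Values are the deposited log2 expression values, on which a difference of 1 is a doubling of the signal and the lowest value of the table was 2.22. Between 50.6% and 53.2% of all probe sets on an array lay within 0.1 of that lowest value. Among the GST, M1 and M2 arrays, replicates 1 and 2 stood apart from replicate 3: after subtraction of group means, the correlation across probe sets ran from -0.89 to -0.54 between the 2 sets and from 0.34 to 0.93 between arrays with the same replicate number. All 12 blood cell (hemocyte) marker genes examined, the markers of the lineage SL2 cells resemble, were above 4 in GST, M1 and M2 cells, with a summed level between 16.85 and 16.90 (log2) on the GST arrays and between 16.30 and 17.05 on the knockdown arrays. Of these 12, all tested, NimC1, a phagocytosis receptor gene, rose by 2.2 ± 0.27 (SE, limma adjusted p = 0.000633), none fell and the other 11 did not pass the test. Over all probe sets tested in the same way, 7.85% rose and 17.4% fell. Because RNA of whole cultures was measured, fewer cells expressing a gene and less RNA per cell cannot be told apart in any result below.

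Few chemosensory genes were measured above the lowest values in SL2 cells. In GST cells 7 of the 212 genes (3.3%) had a mean log2 value above 4, against 49.5% of all 11981 genes. The 7 were the Gr genes Gr61a, Gr93b and Gr93d, the Or gene Or1a, the Ir gene Ir76a and the Obp genes Obp44a and Obp99c. In the cells without dsRNA 7 genes (3.3%) were above 4, with Obp18a in place of Gr93d. The number rose to 10 (4.72%) with M1 and the same 10 genes with M2, while the share of all genes above 4 was 48.5% with M1 and 48.7% with M2. Between GST and knockdown cells 2 genes, Gr61a and Ir76a, left the set above 4, and 5 genes, Obp49a, Obp18a, Gr94a, Ir40a and Ir68a, entered it. On the individual arrays the number of genes above 4 lay between 7 and 9 for the 3 GST arrays and between 8 and 11 for the 6 knockdown arrays, so these ranges overlapped. With replicate 3 left out of the group means, 8 genes were above 4 with GST, 9 with M1 and 8 with M2. The larger number in knockdown cells therefore rested largely on replicate 3.

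**Figure D1:**
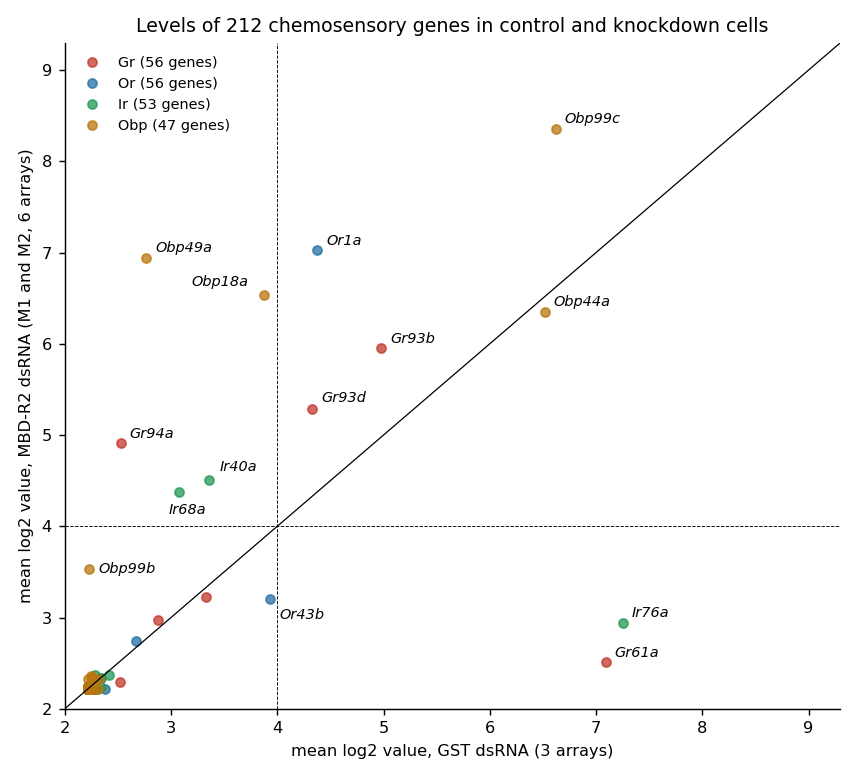
Mean log2 value of each of the 212 chemosensory genes in GST cells (horizontal axis, 3 arrays) and in knockdown cells (vertical axis, M1 and M2, 6 arrays), coloured by family. The dashed lines mark the level of 4 and the diagonal marks equal values. Most genes lie together near the lowest value of 2.22, Gr61a and Ir76a lie far below the diagonal, and Obp49a, Obp18a, Or1a and Gr94a lie far above it.

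The other 200 genes stayed close to the lowest values of the table. On every array 190 of them were within 0.5 of 2.22, and 194 never exceeded 3. Their median range over the 10 arrays was 0.01, compared with 4.21 for the 12 genes above 4 in at least 1 group. The Ir co-receptors were among these 200: Ir25a read 2.22 on every array, Ir8a reached 2.28 and Ir76b reached 3.01. Just outside the level of 4 were Or43b, with a GST mean of 3.93, and Obp99b, with an M1 mean of 3.995. Just inside it were Ir68a, with an M2 mean of 4.29, and Gr93d, with a GST mean of 4.33. The 12 genes were spread over the chromosome arms, with 1 of 33 represented genes on 2L, 2 of 71 on 2R, 3 of 30 on 3L, 4 of 51 on 3R and 2 of 27 on X.

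Differences were tested with limma on probe sets whose mean over the 10 arrays was at least 4, which left 9 of the 212 genes among 7298 probe sets. A gene could pass this filter through a high level in knockdown cells alone, as Obp49a did, or in control cells alone, as Gr61a and Ir76a did. Obp18a was near the filter level in control cells (3.88 with GST, 4.18 without dsRNA) and well above it in knockdown cells (6.54). Counts and the median over the 9 therefore describe these genes, not all chemosensory genes, and support nothing about them as a family. Against GST, 4 genes rose and 2 fell in the mean of M1 and M2 at an adjusted p under 0.05. Over all probe sets tested, 7.85% rose, 17.4% fell and 25.3% changed in either direction. The share of these calls that were lower was 68.9%, against 57.8% after quantile normalisation, 58.8% with the replicate block and 48.9% after centring on the spike-in control probe sets. It was higher, at 89.2%, after that centring with GST replicate 2 left out, and 74.3% without GST replicate 2 alone. The genes that rose were Obp49a, Obp99c, Obp18a and Or1a, and those that fell were Gr61a and Ir76a. The median log2 change was 0.97 over the 9 genes and -0.03 over all probe sets tested, while over all 212 genes, most of them at the lowest values, it was 0.00. With M1 alone against GST the same 4 genes rose and the same 2 fell, where 5.67% of all probe sets rose, 14.7% fell and 20.4% changed in either direction. With M2 alone the same held, where 5.32% rose, 13.5% fell and 18.8% changed in either direction.

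**Figure D2:**
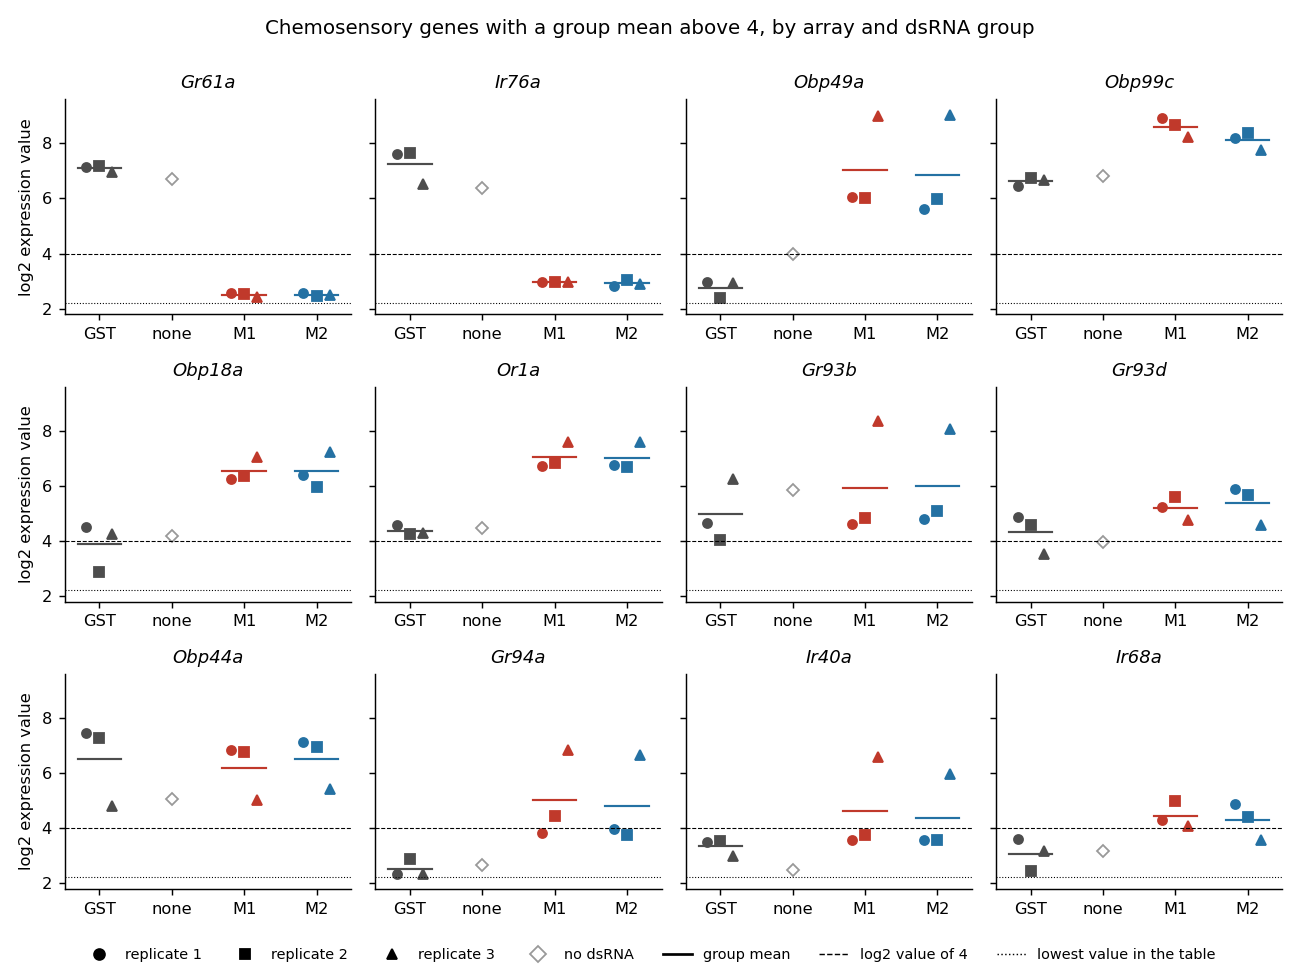
Log2 value of the 12 chemosensory genes with a mean above 4 in at least 1 group on each of the 10 arrays, 1 panel per gene. Each point is 1 array, its shape gives the replicate number, horizontal lines are group means, the dashed line is the level of 4 and the dotted line is the lowest value of the table. Gr61a and Ir76a fell to between 2.44 and 3.03 on all 6 knockdown arrays, and Obp49a, Gr94a and Ir40a were highest on the replicate 3 knockdown arrays.

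Among the receptors of taste neurons, Gr61a belongs to the group of sugar receptors and takes part in the sensing of glucose. It read 7.14, 7.17 and 6.97 on the GST arrays and 6.72 without dsRNA, against 2.56, 2.55 and 2.44 with M1 and 2.57, 2.45 and 2.51 with M2. The control and knockdown arrays did not overlap, and the highest knockdown value lay 0.35 above the lowest value of the table. The change was -4.58 ± 0.11 (SE, limma adjusted p = 9.12e-07), and it was -4.58 with each construct. Since the knockdown values are near the floor of the measurement, a larger change could not be seen here.

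Gr93b and Gr93d belong to a cluster of Gr genes whose member Gr93a is needed for the taste of caffeine. Gr93b read 4.66, 4.02 and 6.26 with GST, 5.85 without dsRNA, 4.63, 4.82 and 8.34 with M1, and 4.79, 5.10 and 8.05 with M2. Its groups overlapped, with replicates 1 and 2 low and replicate 3 high in every group. The change was 0.97 ± 1.05 (SE, limma adjusted p = 0.576). With the replicate number as a block the same change had an adjusted p of 0.043. In that blocked fit 6 of the 9 genes rose and 2 fell, while 18.0% of all probe sets rose and 25.7% fell, and spike-in centring with GST replicate 2 dropped turned the sign to -0.09.

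Gr93d read 4.89, 4.58 and 3.53 with GST, 3.96 without dsRNA, 5.23, 5.60 and 4.75 with M1, and 5.88, 5.68 and 4.57 with M2. Its groups overlapped too, but here replicate 3 was the lowest array of each group. The change of 0.95 ± 0.40 (SE) had a limma adjusted p of 0.122, which became 0.00366 with the replicate block. Without M2 replicate 3 the change was 1.15, with an adjusted p of 0.047. Of the neighbours in the cluster, Gr93a lay at the lowest values on every array, and Gr93c had a mean of 2.88 with GST, 2.96 with M1 and 2.99 with M2.

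Gr94a, another gustatory receptor gene, was low in control cells and was not among the 9 genes tested. Its values were 2.34, 2.88 and 2.36 with GST and 2.66 without dsRNA, against 3.83, 4.44 and 6.84 with M1 and 3.97, 3.76 and 6.65 with M2. All knockdown arrays lay above all control arrays, and replicate 3 stood far above the others with both constructs. Fitted without the filter, its change was 2.39 ± 0.91 (SE, limma adjusted p = 0.255). It passed after spike-in centring (2.60, adjusted p = 0.0193), also with GST replicate 2 dropped (1.98, adjusted p = 0.00181).

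Or1a encodes an odorant receptor of larval olfactory neurons and was the only represented Or gene with a group mean above 4. It read 4.57, 4.26 and 4.30 on the GST arrays, 4.48 without dsRNA, 6.71, 6.83 and 7.58 with M1, and 6.77, 6.67 and 7.60 with M2. Every knockdown array was above every control array, by at least 2.1. The change was 2.65 ± 0.27 (SE, limma adjusted p = 0.000284). The co-receptor Orco, without which Or proteins do not reach the sensory membrane, read 2.22 on all 10 arrays. Or43b, the other Or gene near the level of 4, read 4.37, 3.89 and 3.54 with GST, 2.81, 3.25 and 3.06 with M1, and 3.64, 3.54 and 2.91 with M2. Its groups overlapped, and fitted without the filter its change was -0.73 ± 0.24 (SE, limma adjusted p = 0.181).

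Ir76a encodes an antennal ionotropic receptor that responds to amines. It read 7.60, 7.64 and 6.52 with GST and 6.38 without dsRNA, against 2.97 on each of the 3 M1 arrays and 2.82, 3.03 and 2.91 with M2. The 6 knockdown arrays lay within 0.21 of each other and at least 3.35 below every control array. The change was -4.31 ± 0.25 (SE, limma adjusted p = 2.31e-05). The knockdown values were nearly equal and at most 0.81 above the lowest value of the table, so a larger fall may not have been measurable with this probe set. Its probe set carries the platform suffix s, given to sets whose probes match more than 1 transcript sequence, although the annotation names no second gene for it.

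Ir40a and Ir68a encode receptors of the humidity-sensing neurons of the antenna, for dry and moist air respectively. Ir40a read 3.50, 3.55 and 3.01 with GST, 2.47 without dsRNA, 3.56, 3.77 and 6.58 with M1, and 3.56, 3.58 and 5.96 with M2. The control and knockdown ranges did not overlap, but in replicates 1 and 2 they were only 0.01 apart, and the difference lay almost wholly in replicate 3. A second probe set of Ir40a did not show this rise, with 2.23 on each M2 array and 2.59 on M1 replicate 3. Ir68a read 3.61, 2.46 and 3.16 with GST, 3.16 without dsRNA, 4.31, 4.97 and 4.09 with M1, and 4.89, 4.42 and 3.57 with M2. Its groups overlapped through M2 replicate 3. Fitted without the filter, neither passed the test (Ir40a 1.15 ± 0.87, adjusted p = 0.722; Ir68a 1.30 ± 0.40, adjusted p = 0.137).

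Obp49a is a secreted protein of taste sensilla that takes part in the suppression of sweet taste by bitter compounds. It read 2.97, 2.40 and 2.93 with GST and 3.99 without dsRNA, against 6.07, 6.01 and 9.0 with M1 and 5.62, 5.97 and 9.01 with M2. The groups did not overlap, and within each construct replicate 3 stood apart, at least 2.93 above the other knockdown arrays. The change was 4.18 ± 0.90 (SE, limma adjusted p = 0.0107). Tested with all probe sets, without the filter, its adjusted p was 0.0643, and 3 of the 212 genes rose and 2 fell, where 1.78% of all probe sets rose and 5.75% fell. With 1 construct alone against GST, Obp49a lost its call when any of the 3 GST arrays was left out, with adjusted p between 0.0573 and 0.0701 for M1 and between 0.069 and 0.0849 for M2, and with M2 also without M2 replicate 3 (3.03, adjusted p = 0.0552).

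Obp99c read 6.46, 6.74 and 6.67 with GST, 6.81 without dsRNA, 8.93, 8.68 and 8.21 with M1, and 8.19, 8.36 and 7.76 with M2. All knockdown arrays were above all control arrays, and replicate 3 was the lowest with each construct. The change was 1.74 ± 0.20 (SE, limma adjusted p = 0.000542). After centring on the spike-in controls the change was 1.94, with a limma adjusted p of 0.2. With GST replicate 2 also left out it was 1.21, with a limma adjusted p of 0.149. The centring alone lowered the calls over all probe sets from 573 higher and 1270 lower to 115 and 110. Without GST replicate 2 it left 120 higher and 990 lower. Obp99b, its relative in the same cytological region, was near the lowest value with GST (2.23, 2.23 and 2.22) and read 3.19, 3.89 and 4.91 with M1 and 2.89, 2.27 and 4.03 with M2. The knockdown arrays of Obp99b all lay above its controls, by as little as 0.01, but its change of 1.30 ± 0.49 (SE), fitted without the filter, did not pass the test (limma adjusted p = 0.253).

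Obp18a read 4.52, 2.87 and 4.24 with GST, 4.18 without dsRNA, 6.25, 6.35 and 7.04 with M1, and 6.39, 5.97 and 7.21 with M2. GST replicate 2 was the lowest array, and the lowest knockdown array was 1.45 above the highest GST array. The change was 2.66 ± 0.42 (SE, limma adjusted p = 0.00254), and it was 1.57 with an adjusted p of 0.0511 when GST replicate 2 was dropped and the arrays were centred on the spike-in controls.

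Obp44a read 7.46, 7.28 and 4.81 with GST, 5.06 without dsRNA, 6.83, 6.75 and 5.03 with M1, and 7.13, 6.94 and 5.44 with M2. Its groups overlapped fully, with replicates 1 and 2 high and replicate 3 low throughout. The change was -0.16 ± 0.72 (SE, limma adjusted p = 0.908), and its sign turned without GST replicate 1 (0.31), without GST replicate 2 (0.22), without M1 replicate 3 (0.13) and without M2 replicate 3 (0.10). In replicates 1 and 2 alone it was -0.46, with an adjusted p of 0.0259.

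The 2 constructs, which were compared with the same GST arrays above, were also set against each other directly. For M2 against M1 none of the 9 tested genes passed the limma test, none had an unadjusted p under 0.05, and 0.0% of all probe sets passed, with 19 of the 7298 at an unadjusted p under 0.05. The difference farthest from 0 was that of Obp99c, which was 0.50 lower with M2 (SE 0.23, 95% interval from -1.04 to 0.04). The intervals differed in width: for Gr61a the difference between constructs lay between -0.31 and 0.30, whereas for Gr93b it lay between -2.75 and 2.85, so that for Gr93b a difference of several fold could not have been detected. Between the array without dsRNA and GST none of the 9 genes passed the limma test, none had an unadjusted p under 0.05, and 0.0% of all probe sets passed, with 68 at an unadjusted p under 0.05. That comparison rests on 1 array, whose spread was taken from the replicated groups. Where the array set was used as a block, that array was placed with replicate 3, a split that no label names. Since the GST mean holds arrays of both sets, a difference from it cannot be told apart from a difference between the sets. Without the filter 1.29% of all probe sets passed in it, among them 5 chemosensory genes, Or2a, Gr9a, Or85f, Or63a and Obp56e, with differences between 0.02 and 0.29.

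**Figure D3:**
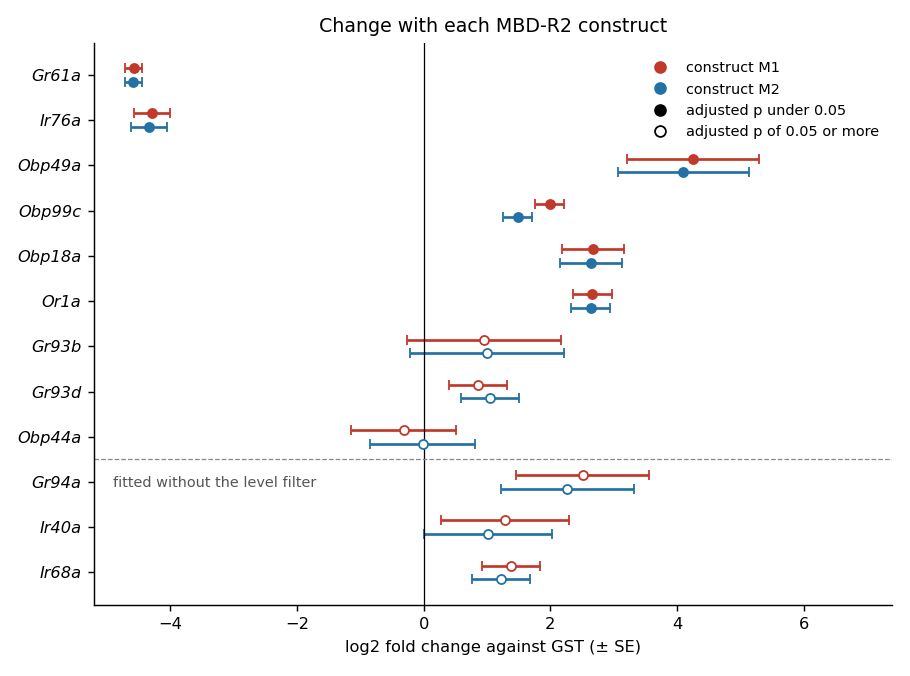
Log2 change against GST with M1 and with M2, with bars of 1 standard error from limma, for the 12 chemosensory genes above 4 in at least 1 group. Both constructs were compared with the same 3 GST arrays. The M1 and M2 changes lie close together for each gene, at -4.58 with both constructs for Gr61a and at 4.26 and 4.10 for Obp49a.

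The size of the change differed between the array sets for several genes. The knockdown effect of replicate 3, measured against its 1 GST array, was compared with that of replicates 1 and 2 by an interaction term in limma, a test added after these values had been seen. Of the 9 genes tested, 4 differed between the sets, where 8.78% of all probe sets did. Obp49a changed by 3.23 in replicates 1 and 2 and by 6.07 in replicate 3, Or1a by 2.33 and 3.29, Ir76a by -4.67 and -3.58, and Obp44a by -0.46 and 0.43. For Ir76a, whose knockdown values hardly varied, the difference follows the GST level, which was lower in replicate 3. Ir40a changed by 0.09 in replicates 1 and 2 and by 3.26 in replicate 3, and Gr94a by 1.39 and 4.39. These values of Ir40a and Gr94a are a description only, since a mean above 4, by which the genes were named, rested on replicate 3 for Ir40a with both constructs and for Gr94a with M2, while 4.75% of all probe sets differed between the sets without the filter. The fall of Gr61a (-4.62 and -4.50) and the rise of Obp18a (2.55 and 2.89) gave adjusted p of 0.692 and 0.823 for that difference, and Obp99c (1.94 and 1.32) gave 0.135. What separates the array sets was not tested.

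**Figure D4:**
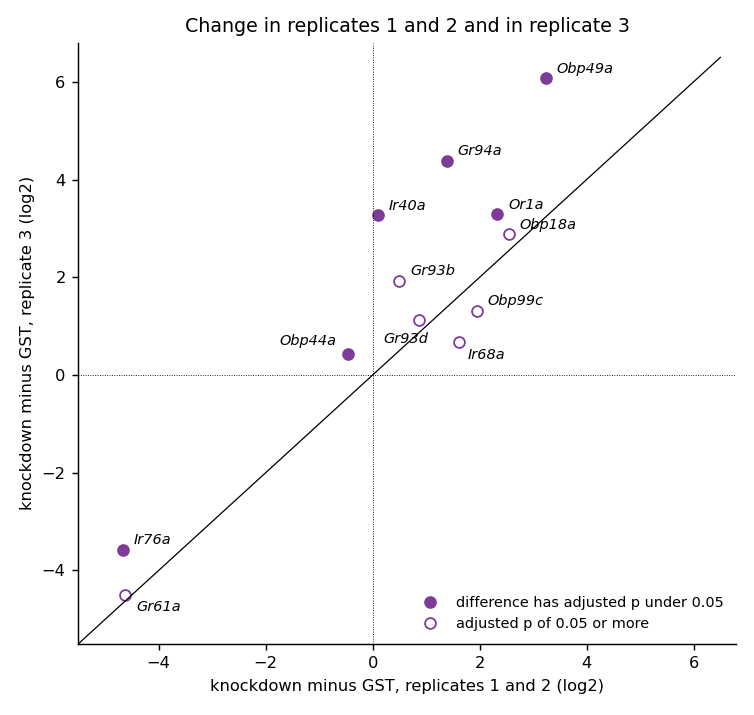
Log2 change of knockdown against GST in replicates 1 and 2 (horizontal axis) and in replicate 3 (vertical axis) for the 12 genes above 4 in at least 1 group, 1 point per gene, filled where the difference had an adjusted p under 0.05 (a description for Ir40a and Gr94a). The diagonal marks equal changes. The changes of Obp49a, Gr94a and Ir40a are larger in replicate 3 by 2.84, 3.0 and 3.17, while Gr61a lies near the diagonal at -4.62 and -4.50.

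The neighbours of the 6 genes that changed were read from the Release 6 RefSeq annotation. Of 15 genes next to them, overlapping them or enclosing them, 14 had a probe set and 5 were tested. None of these 5 rose and 2 fell, where 7.85% and 17.4% of all probe sets did. Both lay beside genes that fell. JMJD5, which encodes a protein with a JmjC domain and lies next to Gr61a, had a mean of 7.31 ± 0.12 (SD, n = 3) with GST, 4.61 ± 0.95 with M1 and 5.38 ± 0.36 with M2. No knockdown array of JMJD5 reached a control array, and its change was -2.31 ± 0.37 (SE, limma adjusted p = 0.00273). On the other side of Gr61a, Cep290, a gene of the ciliary transition zone, was low, with means of 3.02 with GST, 3.50 with M1 and 3.52 with M2, and was not tested.

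Ir76a overlaps CG14102 and lies between SREBP and TORIP. CG14102 read 6.06, 4.94 and 4.59 with GST and 5.23 without dsRNA, against 2.38, 2.28 and 2.40 with M1 and 2.38, 2.32 and 2.41 with M2. It fell to the lowest values on the same 6 arrays as Ir76a, and whether the probes of the 2 overlapping genes read the same RNA was not tested. TORIP, which encodes a torsin-interacting protein, fell by 1.46 ± 0.18 (SE, limma adjusted p = 0.000623), while SREBP, a regulator of lipid synthesis, changed by -0.07 ± 0.25 (SE, adjusted p = 0.879).

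Next to the genes that rose, most neighbours lay near the lowest values. Obp99c overlaps Gycalpha99B, and Or1a lies inside CG3777, and the probe sets of both larger genes stayed within 0.5 of the lowest value on all arrays. RhoGAP18B, beside Obp18a, had means of 9.20 with GST, 9.69 with M1 and 9.73 with M2, a change of 0.51 ± 0.18 (SE, limma adjusted p = 0.0725). CG8768, beside Obp49a, changed by -0.63 ± 0.23 (SE, limma adjusted p = 0.0793). Among the genes that did not pass the test, Gr94a lies inside p53, a gene named here after its values were seen. The highest probe set of p53 read 8.27, 7.85 and 8.30 with GST, 7.94, 8.12 and 9.67 with M1, and 8.22, 8.09 and 9.81 with M2, so that it too was highest in the replicate 3 knockdown arrays. Its change was 0.50 ± 0.49 (SE, limma adjusted p = 0.529).

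**Figure D5:**
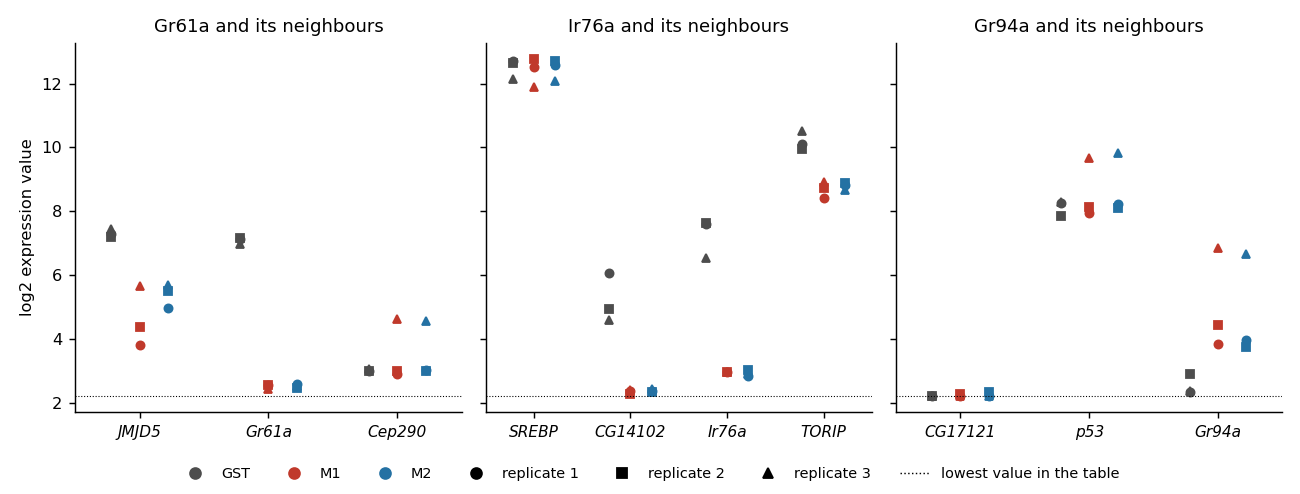
Log2 value on each GST, M1 and M2 array (vertical axis) of Gr61a, Ir76a and Gr94a and of their neighbours with a probe set in the Release 6 annotation, 1 panel per gene group, with the replicate number given by the point's shape. JMJD5 beside Gr61a and TORIP beside Ir76a were lower on all knockdown arrays, and p53 and Gr94a were highest on the replicate 3 knockdown arrays.

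Other genes of chemosensation were counted from a list of 47 entries whose symbols do not follow the naming rule, among them the Or co-receptor Orco, the odorant-binding protein gene lush, pheromone-response proteins, ppk channels and signalling proteins. Of the 37 with a probe set, 30 stayed within 0.5 of the lowest value on all arrays, and 6 were above 4 with GST, 5 with M1 and 6 with M2. None of the 5 that were tested passed, where 25.3% of all probe sets changed in either direction. The smallest adjusted p was that of Galphao, a G protein subunit, which changed by 0.49 ± 0.19 (SE, limma adjusted p = 0.0996). Snmp1, a CD36 relative needed for the pheromone response, changed by -0.19 ± 0.24 (SE, adjusted p = 0.633). The ppk29 gene, which encodes a channel subunit of pheromone-sensing taste neurons, read 4.65, 4.85 and 5.34 with GST, 3.04, 3.11 and 3.23 with M1, and 3.10, 2.95 and 3.02 with M2. Its knockdown arrays all lay below its control arrays. Fitted without the filter, a choice made after its values were seen, its change was -1.87 ± 0.15 (SE, limma adjusted p = 0.00101). In that fit 5.75% of all probe sets fell. The gene lush, whose product binds a male pheromone, had a mean of 2.97 ± 0.19 (SD, n = 3) with GST, 3.96 ± 0.93 with M1 and 4.72 ± 0.92 with M2. It was not tested with the filter, and without it its change of 1.36 ± 0.52 (SE) had a limma adjusted p of 0.261. Of 13 entries for glutamate receptor relatives of the Ir genes, 12 had a probe set, none was tested and 11 stayed within 0.5 of the lowest value.

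Markers of nerve cells were examined on the same arrays, and 1 of the 2 neuron markers tested passed. Of 8 entries for neuron markers, 7 had a probe set, 4 of them within 0.5 of the lowest value on all arrays, and 2 were tested. The summed level (log2) of the 7 lay between 7.33 and 7.93 on the GST arrays and between 8.27 and 9.37 on the knockdown arrays. That sum came mostly from the 2 tested, elav and brp, since futsch, the highest of the others, reached only 2.96. The presynaptic gene brp rose by 1.18 ± 0.14 (SE, limma adjusted p = 0.000631), where 7.85% of all probe sets rose. The change of elav, the pan-neuronal RNA-binding protein gene, was 1.06 ± 0.57 (SE, limma adjusted p = 0.229). Its groups overlapped, with 5.84 to 7.25 with GST and 6.84 to 8.85 with knockdown, and replicate 3 was highest with each construct. Of 8 markers of olfactory and taste neurons or their support cells, Orco, amos, acj6, Poxn and nompA stayed within 0.5 of the lowest value on every array, and lush, described above, was 1 of the other 3. The sum over the 8 lay between 6.18 and 6.70 with GST and between 6.56 and 7.30 with knockdown. Of the 2 tested, the POU factor gene pdm3 rose by 2.23 ± 0.58 (SE, limma adjusted p = 0.024), with an adjusted p of 0.116 without the filter. The other, Snmp1, changed by -0.19 ± 0.24 (SE, limma adjusted p = 0.633). With a mean of 2.91 with GST, pdm3 passed the filter only through its level in knockdown cells. It read 4.34, 4.89 and 6.35 with M1 and 4.59, 4.18 and 6.49 with M2, so replicate 3 was highest with each construct. The 4 fat body markers with a probe set stayed at the lowest values, with a sum of 4.24 with GST and between 4.24 and 4.35 with knockdown. Whether these markers have a part in the changes of the chemosensory genes was not tested.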

How the data were processed

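RNA of 10 SL2 cultures was measured on Affymetrix arrays. The deposited log2 values, 1 per probe set and array, were made by the authors with GCRMA (background correction, normalisation and summary of probes), per the submitters' processing notes; its version is not given in the sources used here. No further normalisation was applied.

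Of 18952 probe sets, 183 controls were left out, 13646 of the rest name 1 gene in the platform annotation, 402 several, and 4721 are unnamed here. Symbols were updated by Entrez identifier through the RefSeq table of Release 6, which matched 13543 probe sets, and platform and updated symbols gave the same genes. For each gene the probe set of highest mean was used; 15 of the genes have several, and the other probe set of Ir40a did not exceed 2.59. Because RefSeq and the array differ in build, no coordinates are given.

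Groups follow the source name in the labels. Probe sets with a mean of at least 4 (7298) were fitted with limma 3.58.1 in R 4.3.3 (lmFit and eBayes on 4 group means, two-sided, Benjamini-Hochberg over all probe sets tested, threshold 0.05). Genes with a group mean above 4 in any group were named, with those nearest to that level outside it. Gr94a, Ir40a and Ir68a, which failed the filter, and Or43b and Obp99b were fitted without it, a choice made after the values were seen. The same holds for ppk29 and lush, from the list of other genes of chemosensation. The members and lists were chosen with earlier results of these data known. Every pair of arrays with the same replicate number correlated above 0.1 after subtraction of group means (0.34 to 0.93 over 9 pairs), so the numbers were taken to pair the samples in the replicate block. Arrays with different numbers within the set of replicates 1 and 2 did so too (0.55 to 0.75 over 6 pairs). The main fit leaves this pairing out. With the replicate block 1313 of the 7298 probe sets rose and 1876 fell, against 573 and 1270 in the main fit. Alternatives were other filters, quantile, median and spike-in centring, replicate and array set blocks, replicates 1 and 2 alone, array weights, a trended and robust fit, and leaving out each array. On data simulated for knockdown against GST over 7298 probe sets, the fit recovered 45% of 100 probe sets changed by 1 (log2) and 73% of 100 changed by 2, with 8 false calls. The simulated noise was independent between arrays, without the array sets, and fewer probe sets were changed than the 1843 called in the data. These rates therefore need not hold for the real arrays. The number of arrays limits the precision. The target transcript and sequences of the genes were not analysed here. Python 3.11.15, pandas 2.3.3 and matplotlib 3.10.9 were used for tables and plots.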

Additional observations from a re-analysis of the deposited data

Results flagged for a closer look

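For 4 of the 9 genes tested the limma interaction of knockdown with array set (replicate 3 against replicates 1 and 2) passed an adjusted p of 0.05, as did 8.78% of all probe sets; the array sets and this test were chosen after the data had been seen, and replicate 3 has 1 GST array. The difference between the effects was 2.84 ± 0.32 (SE) for Obp49a (adjusted p = 0.00796), higher on both replicate 3 knockdown arrays than on the 4 others. It was 0.96 ± 0.20 for Or1a (adjusted p = 0.035), with the 2 replicate 3 knockdown arrays again highest. For Ir76a it was 1.10 ± 0.16 (adjusted p = 0.0159): the fall was smaller in replicate 3, where the GST array was lower, and since the knockdown arrays lay at the same low level throughout, the difference follows the GST arrays. For Obp44a it was 0.89 ± 0.19 (adjusted p = 0.0387), with a negative effect in replicates 1 and 2 and a positive one in replicate 3. Without the filter, where 4.75% of all probe sets passed, the difference was 3.0 for Gr94a and 3.17 for Ir40a; these are given as a description, because the level by which both genes were named rested in part on replicate 3. The source of the difference between the array sets was not tested.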

How the results depend on the processing

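Counts of genes that rose, fell or were called against GST with M1, M2 or their mean stayed within 1.5 times under 86 of 92 recomputations, and counts of genes above 4 under 25 of 27. With a filter at a mean of 6, 2 genes were left to test, 1 rose, 0 fell, and 1 was called with M1 and 1 with M2. For the mean of M1 and M2, 460 of the 6107 probe sets tested with that filter rose and 900 fell. Spike-in centring left 3 genes called with M1. Obp99c (1.98), Obp18a (2.66) and Or1a (2.65) were lost at changes close to 1.99, 2.67 and 2.66 before it. Calls over all probe sets for the mean of M1 and M2 fell from 573 higher and 1270 lower to 115 and 110. The spike-in median of GST replicate 2, 13.12, exceeded 10.66 and 10.84 of the other GST arrays. With GST replicate 2 also left out, 2 genes rose, where 120 of all probe sets rose and 990 fell. Gr94a was gained under both (2.60, adjusted p = 0.0193, and 1.98, adjusted p = 0.00181). For the mean of M1 and M2, the centring without GST replicate 2 lost Obp99c (1.21, limma adjusted p = 0.149) and Obp18a (1.57, limma adjusted p = 0.0511). Spike-in centring moved the median change of all probe sets from -0.03 to 0.18, and to -0.65 without that array. Without the filter, 5 genes (Or2a, Gr9a, Or85f, Or63a and Obp56e, all near the lowest values) were called without dsRNA against GST, where 1.29% of all probe sets were. With group means above 3 or 5 in place of 4, 12 or 4 genes counted in GST cells. Gr93b turned to -0.088 under spike-in centring without GST replicate 2. Obp44a turned to 0.11 under quantile normalisation and 0.047 under spike-in centring, and ranged from -1.02 to 0.31 with 1 array left out. With the replicate block, which pairs arrays by number, 6 genes rose and 2 fell; Gr93b (0.97, adjusted p = 0.043) and Gr93d (0.95, adjusted p = 0.00366) were gained, and no other call of the mean of M1 and M2 changed. Leaving out 1 array at a time, the 6 calls of the mean of M1 and M2 held, Obp49a with an adjusted p of at most 0.0462, and Gr93d was gained without M2 replicate 3. In these fits between 364 and 573 of the 7298 probe sets rose for that mean and between 972 and 1270 fell. With M1 and with M2 alone, 5 or 6 genes were called. Differences near the lowest values, for 200 of the 212 genes and for the knockdown levels of Gr61a and Ir76a, are limited by the background of the arrays.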
